A study of Mus musculus with 8 samples.

Results

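Interferon-stimulated genes were examined as a set of 46 named genes in the RNA of the gastrocnemius, the large calf muscle, of aged mice. The members were the rows of the deposited count table whose gene symbol is on a list of 46 names, and all 46 were found among the 35949 rows that carry a gene name. Of them, 38 are called type I-like here, after the interferon class best known for inducing them, and 8 are interferon-induced GTPases of the Gbp and Irg families. The mice had received blood-forming stem cells, either control cells (genotype label WT, n = 4 libraries) or cells with overexpressed SIRT3, a mitochondrial deacetylase (genotype label T3TG, n = 4 libraries). All mice of both groups were therefore transplant recipients of the same tissue type. The promoter behind SIRT3, the exact age, the sex, the strain, the conditioning before transplantation and the share of donor cells are not stated in the labels, and whether each library comes from its own animal is not stated. The p-values thus measure the spread between these samples, which may be technical.

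Library totals ran from 16.2 to 28.1 M counts. T3TG replicates 2 and 3 stand apart. Among their values from 10 to 99, 97.5% and 98.0% were even numbers, against 50.5% to 52.5% in the other 6 libraries. Each main result is given with all 8 libraries and again with the 6 libraries left after removing both. The tissue label fits its markers: all 12 skeletal muscle fiber markers were present, with Acta1, the skeletal actin, at 32709 CPM (WT) and 32506 CPM (T3TG). CPM are read counts scaled to a common library total after TMM scaling, which aligns the bulk of the genes between libraries.

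Interferons are secreted when cells sense foreign or misplaced nucleic acid. Type I interferons bind the receptor Ifnar1 and Ifnar2, whose kinases Jak1 and Tyk2 activate transcription factors, Stat2 among them. With Irf9, Stat2 is part of a complex that binds the interferon-stimulated response element (ISRE) in front of its target genes. Interferon gamma, the type II interferon, acts through Ifngr1 and Ifngr2 and on genes with a gamma-activated site (GAS), and it is the classical inducer of the Gbp and Irg GTPases. Many of the members respond to both classes and have a low constant level in resting tissue.

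The response element is shown here because its core letters occur in front of many members of both classes. The members were listed by name as interferon-stimulated genes, so their share of matches is not independent of that choice. Promoters of 34 of the 46 members were found in a RefSeq table of the GRCm38.p6 build, which covers 250 bases before to 50 bases after each start. The core letters searched on both strands were GAAA and GAAA with any 2 bases between them for the ISRE and TTCNNNGAA for the GAS. In 2 members the matches to these 2 motifs overlapped. The ISRE core was found in 14 of 27 type I-like members (51.9%) and in 6 of 7 GTPase members (85.7%), against 3.99% of the 27025 genes in the table. The GAS core was found in 6 of 27 and 3 of 7 (22.2% and 42.9%), against 9.55% of all genes. The stretches below are written 5′ to 3′ along the gene, and capitals mark ISRE core matches on either strand. GAS core matches are not marked. The Bst2, Igtp and Irgm2 stretches hold 1 each, and that of Bst2 overlaps its ISRE matches.
Rsad2: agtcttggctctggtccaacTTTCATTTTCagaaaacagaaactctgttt
Bst2: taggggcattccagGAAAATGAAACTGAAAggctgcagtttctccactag
Isg15: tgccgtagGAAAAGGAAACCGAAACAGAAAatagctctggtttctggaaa
Ifit1: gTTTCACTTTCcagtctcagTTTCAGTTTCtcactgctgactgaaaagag
Gbp2: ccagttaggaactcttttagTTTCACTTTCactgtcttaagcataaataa
Igtp: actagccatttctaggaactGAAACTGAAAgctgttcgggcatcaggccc
Irgm2: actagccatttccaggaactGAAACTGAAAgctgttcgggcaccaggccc
Rsad2 and Bst2 were chosen because their groups did not overlap, Isg15 and Ifit1 as classical targets with several matches, and Gbp2, Igtp and Irgm2 for the GTPases. The Isg15 stretch holds 3 overlapping matches, and the Bst2 and Ifit1 stretches hold 2 each. The Rsad2 stretch lies at chr12:26456543-26456592 on the minus strand, the Bst2 stretch at chr8:71537567-71537616 on the minus strand and the Isg15 stretch at chr4:156200855-156200904 on the minus strand. The Ifit1 stretch lies at chr19:34640784-34640833, that of Gbp2 at chr3:142620584-142620633, that of Igtp at chr11:58199502-58199551 and that of Irgm2 at chr11:58214893-58214942, all on the plus strand. The stretches of the neighbouring genes Igtp and Irgm2 were identical at 48 of 50 bases. A match describes these letters and does not show binding.

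Interferon-stimulated genes had slightly higher values in T3TG than in WT muscle, and no single member passed the test over all genes. By edgeR's quasi-likelihood test, 43 members could be tested and 0 had a Benjamini-Hochberg adjusted p under 0.05, where 10 of all 14064 genes tested did (0.0711%). Of the 43, 39 had a higher value in T3TG and 4 a lower one, while 49.1% of all tested genes had a higher value. At an unadjusted p under 0.05 there were 7 members higher in T3TG (16.3%) and 1 lower (2.33%), against 5.88% and 2.45% of all tested genes. The median log2 fold change was 0.21 in the 35 tested type I-like members, of which 33 were higher, and 0.17 in the 8 GTPase members, of which 6 were higher. The median over all tested genes was -0.00427.

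The type I-like median was smaller without the libraries with even counts. In the 6 other libraries it was 0.0746, with 26 of the 35 members higher, and the GTPase median was 0.14, with 6 of 8 higher. Of all tested genes 50.4% were higher in these 6 libraries, with a median of 0.00206. There 2 members were higher at an unadjusted p under 0.05 (4.65%, against 3.14% of all genes tested in those libraries) and 1 was lower (2.33%, against 2.21%), and edgeR called 0 genes of any kind. DESeq2 called 1 member in all 8 libraries, Ifi27l2a, with 0.689% of all genes called. Of the members with a log2 fold change above 0 in the 8 libraries, 8 had one below 0 in the 6: Irf7 (-0.04), Ddx58 (-0.07), Ifit1 (-0.08), Oas1a (-0.58), Oas2 (-0.09), Isg15 (-0.20), Usp18 (-0.13) and Sp100 (-0.08). For Dtx3l it was below 0 in the 8 libraries and above 0 in the 6 (0.06). The share of all tested genes that changed sign between the 2 fits was not counted. The plot of fold changes shows how wide the interval of most members was.

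**Figure D1:**
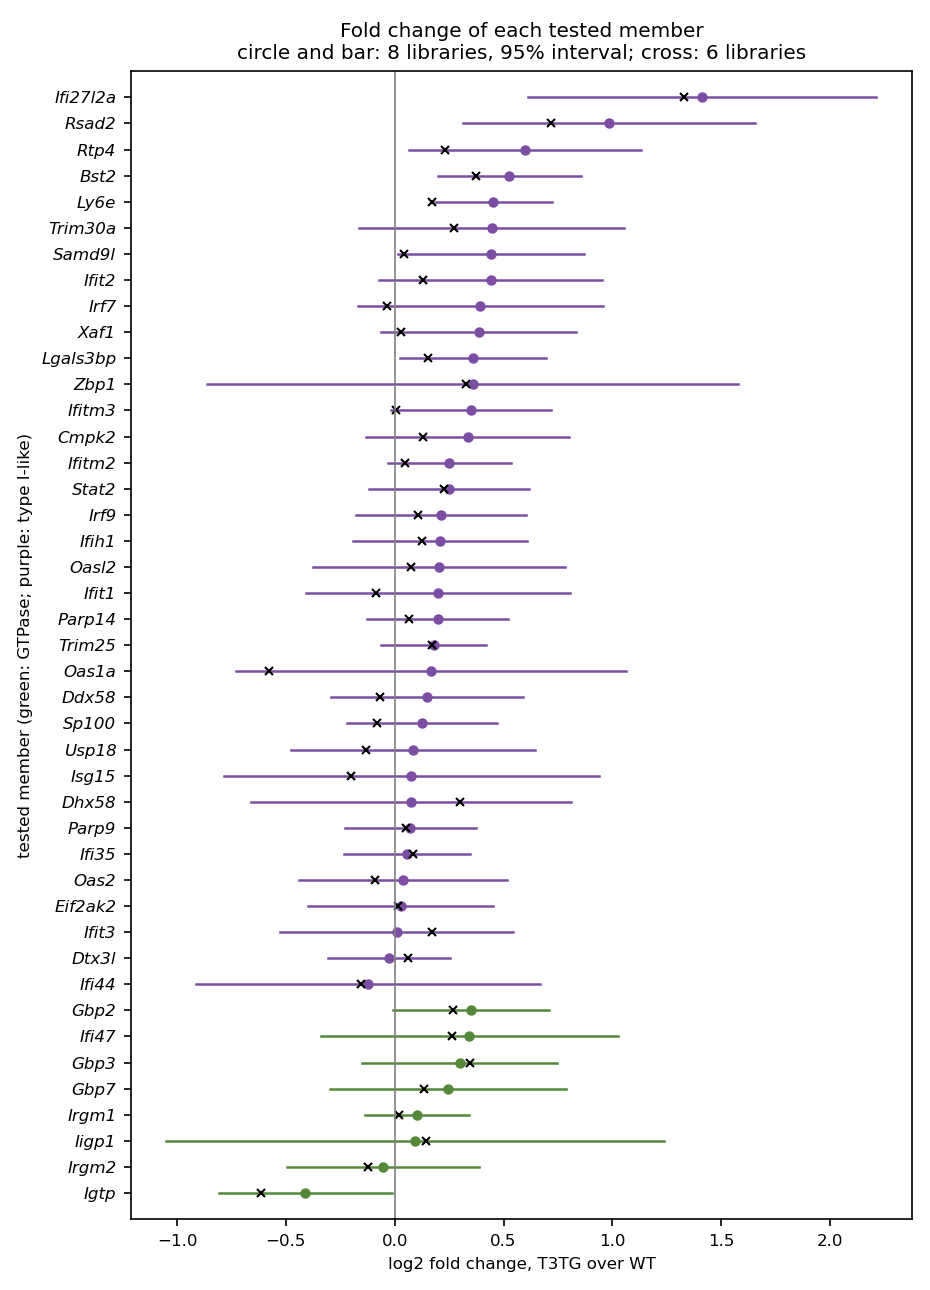
Log2 fold change (x axis, T3TG over WT) of each of the 43 tested members (y axis), as a circle with its 95% interval from all 8 libraries and a cross for the 6 libraries without T3TG replicates 2 and 3. Type I-like members are purple and GTPase members green, and 35 of the 43 intervals include 0.

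Single libraries stood out across the members. T3TG replicate 3 had the highest value of all 8 libraries in 21 of the 43 tested members (48.8%), while it was highest for 15.3% of all tested genes. WT replicate 4 was lowest in 18 of the 43 (41.9%), against 11.1% of all tested genes, and WT replicate 3 was lowest in a further 10, against 13.6% of all tested genes. No member was highest in WT replicate 3 or WT replicate 4, which were highest for 15.7% and 11.0% of all tested genes. The median member of the type I-like class stood, on the log2 scale relative to the WT mean, at 0.13, 0.09, -0.09 and -0.13 in WT replicates 1 to 4 while the T3TG libraries, in the same order, stood at 0.07, 0.34, 0.60 and 0.13. By this median T3TG replicates 1 and 4 lay within the WT range, and T3TG replicates 2 and 3 above it. By summed level the 2 groups did not overlap. The type I-like members summed to 332 to 364 CPM in the WT libraries and to 368, 464, 528 and 394 CPM in T3TG replicates 1 to 4. Of these sums, the 4 membrane-bound antiviral factors made up 156 to 166 CPM in WT and 168 to 254 CPM in T3TG. Without T3TG replicate 3 alone the type I-like median log2 fold change was 0.14.

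**Figure D2:**
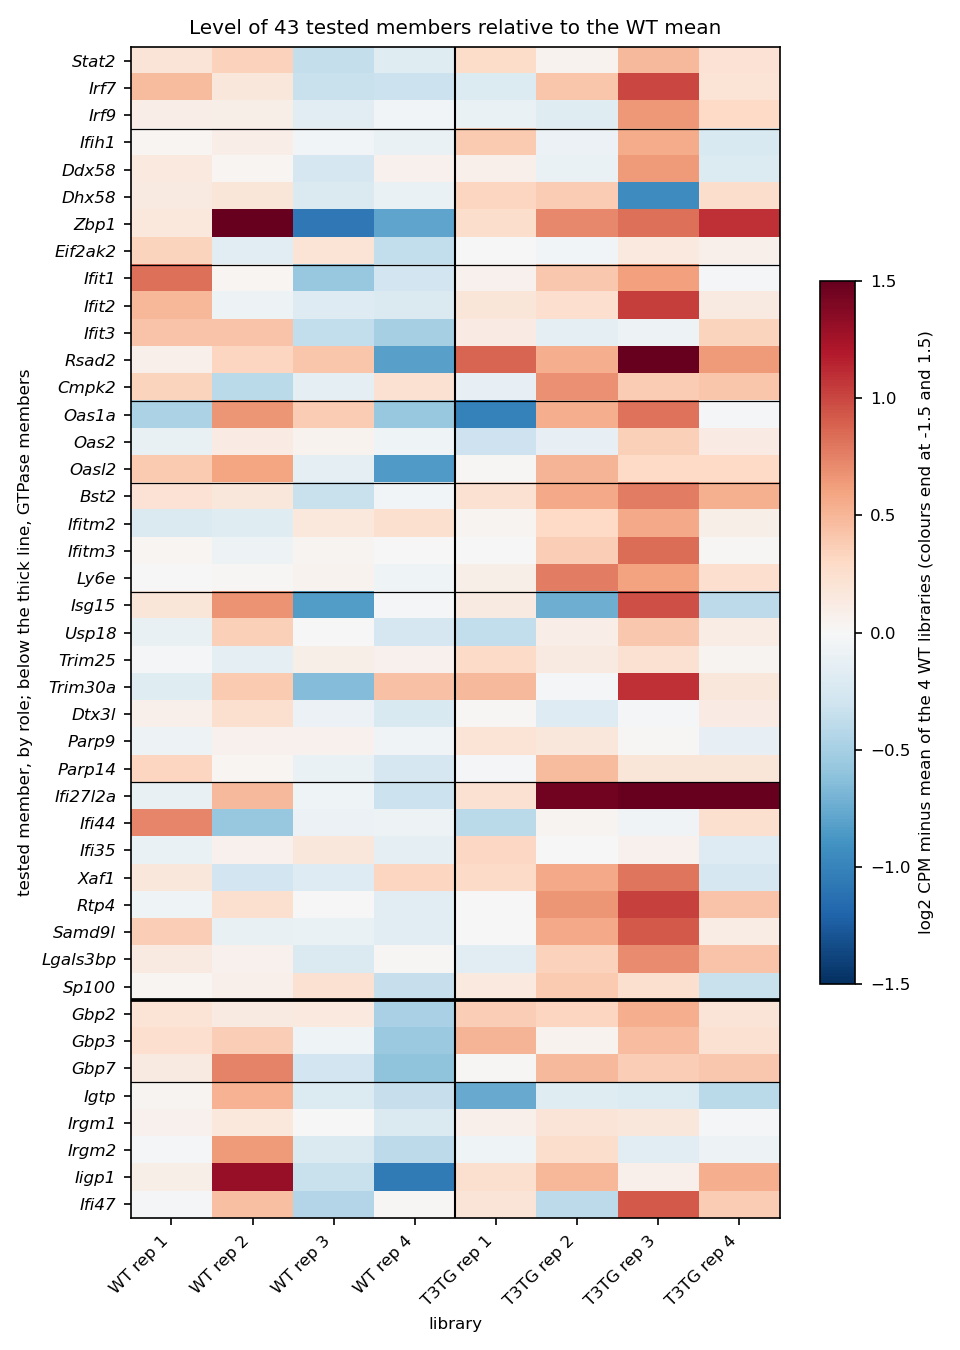
Level of each of the 43 tested members (rows, ordered by role, with GTPase members below the thick line) in each library (columns), as log2 CPM minus the mean of the 4 WT libraries. T3TG replicate 3 holds the highest value in 21 rows, and WT replicate 4 the lowest in 18.

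By summed level, macrophage markers were highest in T3TG replicate 3 too, and so were endothelial, neutrophil and B and plasma cell markers. Of the 23 macrophage markers in the table, none was at 0 throughout and 22 were tested. Of these, 21 had a higher value in T3TG, against 49.1% of all tested genes. At an unadjusted edgeR p under 0.05, 13 of them were higher, against 5.88% of all tested genes. In the 6 libraries 20 of the 22 were higher, against 50.4% of all tested genes. At an unadjusted p under 0.05, 2 of the 22 were higher there, against 3.14% of all genes. Their median log2 fold change was 0.58 in 8 libraries and 0.28 in the 6. Their summed level was 229 to 290 CPM in the WT libraries. It was 302, 349, 541 and 305 CPM in T3TG replicates 1 to 4. The 2 groups did not overlap, and T3TG replicate 3 was highest. The part of these cells in the interferon-stimulated genes was not tested, and in bulk RNA a different number of cells of a type and a different amount of RNA per cell cannot be told apart. Endothelial markers summed to 433 to 550 CPM in WT and 582 to 688 CPM in T3TG (11 of 12 higher, 6 of them at an unadjusted p under 0.05), and those of fibro-adipogenic progenitors, which are stromal cells of muscle, to 1450 to 1826 and 1927 to 2385 CPM (8 of 8 higher, all at an unadjusted p under 0.05, with 1 of them, Pi16, past the edgeR threshold). Beside the same 50.4% and 3.14% of all genes, 9 of 12 endothelial markers were higher in the 6 libraries, 2 of them at an unadjusted p under 0.05. All 8 fibro-adipogenic markers were higher there, 4 of them at that p and none past the edgeR threshold. T and NK cell markers were too low to test: 11 markers summed to between 0.126 and 4.83 CPM in a WT library and between 0.965 and 4.59 CPM in a T3TG library. Neutrophil markers summed to at most 14.2 CPM, with Mpo at 0 in every library, and B and plasma cell markers to at most 12.3 CPM. Markers of plasmacytoid dendritic cells, the strongest producers of type I interferon, summed to at most 2.74 CPM. The sums of fibro-adipogenic and plasmacytoid dendritic cell markers were highest in T3TG replicate 2. Those of T and NK cells were highest in WT replicate 2, and those of muscle fibers in T3TG replicate 4.

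**Figure D3:**
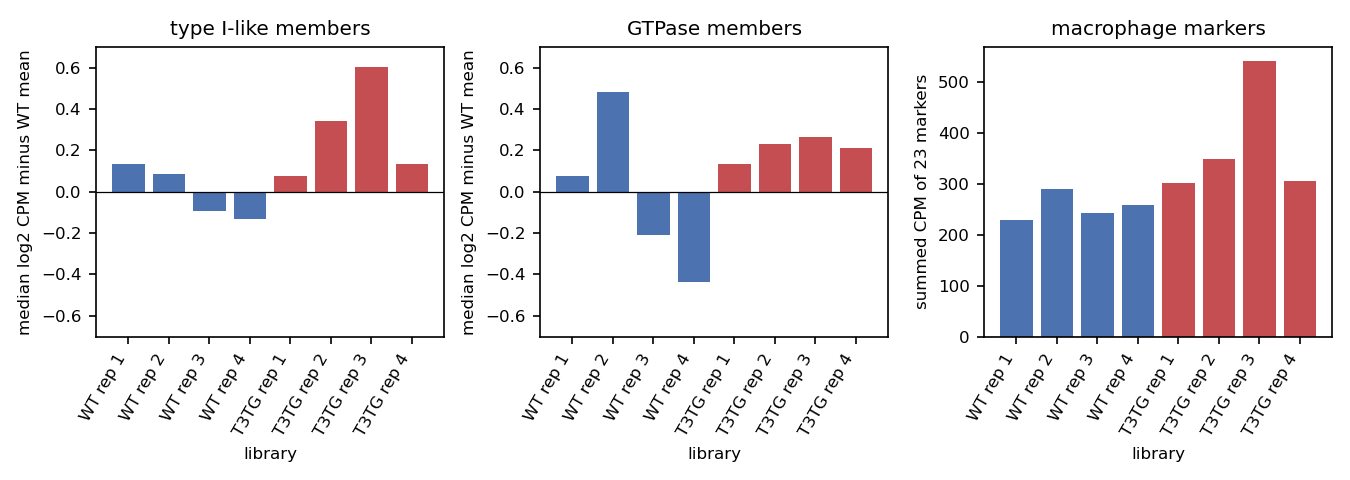
Per library (x axis), the median over tested type I-like members and over GTPase members of log2 CPM minus the WT mean (left and middle), and the summed CPM of 23 macrophage markers (right), with WT in blue and T3TG in red. T3TG replicate 3 is highest in the left and right panels (0.60 and 541 CPM), and WT replicate 2 in the middle panel (0.48).

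Ifi27l2a, a small interferon-induced mitochondrial and nuclear membrane protein, had the largest difference of all members. Its level was 4.63, 7.06, 4.80 and 3.99 CPM in WT replicates 1 to 4. Its T3TG values, in the same order, were 5.86, 13.9, 14.7 and 20.03 CPM. T3TG replicate 1 lay inside the WT range, and the other T3TG libraries, with and without even counts, lay well above it. On the log2 scale the difference was 1.41 (SE 0.35), a ratio of 2.66 with a 95% interval from 1.53 to 4.64, at an edgeR adjusted p of 0.273 and a DESeq2 adjusted p of 0.00147. In the 6 libraries it was 1.33 (SE 0.50, edgeR unadjusted p = 0.0370, adjusted p = 0.930). Without T3TG replicate 1 the edgeR test called the gene (1.66, adjusted p = 0.00363), where 37 of 14228 genes passed. Over all alternatives its adjusted p ran from 0.00147 to 0.997. Ifi27l2a lies on chromosome 12 from 103433873 to 103443680 and overlaps the related gene Ifi27 in RefSeq, with a mean of 30.3 CPM for WT and 31.4 for T3TG. No label or header gives the strand setting of the counting, so the 2 genes could share reads.

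The 4 membrane-bound antiviral factors were among the 5 members of highest level per length. Per kilobase of exon, over all 8 libraries, the means were 64.9 CPM for Ifitm3, 59.97 for Ifitm2, 24.0 for Ly6e, 20.2 for Ifi27l2a and 12.6 for Bst2. Ly6e, a lipid-anchored surface protein that restricts coronavirus entry, had 76.8, 77.3, 79.6 and 73.1 CPM in WT replicates 1 to 4. Its T3TG values, in the same order, were 81.7, 131, 116 and 91.2 CPM. The WT libraries lay close together and every T3TG library lay above them, with the even-count libraries highest. The log2 fold change was 0.45 (SE 0.12, edgeR adjusted p = 0.255, 0.0420 to 0.955 over the alternatives), and 0.17 (SE 0.10) in the 6 libraries.

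Bst2, or tetherin, which holds budding viruses at the cell surface, had 10.7, 10.4, 7.26 and 8.93 CPM in WT replicates 1 to 4. Its T3TG values, in the same order, were 10.8, 13.7, 15.8 and 13.4 CPM. The groups did not overlap, but T3TG replicate 1 was level with WT replicate 1. On the log2 scale the difference was 0.53 (SE 0.15, edgeR adjusted p = 0.281), and 0.37 (SE 0.18) in the 6 libraries. Ifitm2 and Ifitm3 block the fusion of viruses with endosomes. On the log2 scale their differences were 0.25 (SE 0.13) and 0.35 (SE 0.17), and that of Ifitm2 was 0.05 (SE 0.14) in the 6 libraries. Ifitm3 was 36.8 to 39.8 CPM in WT and 38.7, 50.2, 69.1 and 39.0 CPM in T3TG replicates 1 to 4, so only the even-count libraries stood above WT, and in the other 6 its log2 fold change was 0.00519. These 2 genes are close relatives on chromosome 7, and reads that fit both may be assigned unevenly.

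Rsad2, or viperin, an enzyme that makes a chain-terminating nucleotide against viral RNA synthesis, had the second largest difference. Its level was 3.61, 4.28, 4.61 and 1.90 CPM in WT replicates 1 to 4. Its T3TG values, in the same order, were 6.37, 5.02, 11.3 and 5.37 CPM. The groups did not overlap, and T3TG replicate 3, the highest library in 21 of the 43 tested members, was far the highest here. The log2 fold change was 0.99 (SE 0.31, edgeR adjusted p = 0.369). It was 0.72 in the 6 libraries (SE 0.30, unadjusted p = 0.0319) and 0.65 without T3TG replicate 3. Across the members, Rsad2, Bst2 and Ly6e were the 3 of 43 whose lowest T3TG value exceeded the highest WT value, a pattern found in 3.12% of all tested genes, and none showed the opposite (1.66%).

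The Ifit genes, whose proteins bind viral RNA ends, overlapped between the groups, unlike Rsad2. Ifit1, Ifit2 and Ifit3, which lie in one cluster on chromosome 19 together with close copies that may share their reads, had log2 fold changes of 0.20 (SE 0.28), 0.44 (SE 0.24) and 0.01 (SE 0.25). In the 6 libraries the same values were -0.08, 0.13 and 0.17. Ifit1 was highest in WT replicate 1, at 5.98 CPM, and the other 7 libraries held between 2.21 and 5.16 CPM. Ifit2 was highest in T3TG replicate 3, at 8.86 CPM, against 4.71 to 5.13 CPM in the other T3TG libraries. Cmpk2, a mitochondrial nucleotide kinase next to Rsad2 on chromosome 12, had 0.34 (SE 0.22) on the log2 scale, and 0.13 in the 6 libraries.

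Among the remaining induced genes, 3 had an unadjusted p under 0.05. Rtp4, a chaperone of membrane receptors, had 2.37, 2.96, 2.46 and 2.18 CPM in WT replicates 1 to 4 and 2.48, 3.99, 5.16 and 3.38 CPM in T3TG replicates 1 to 4. Samd9l, a regulator of cell growth and antiviral translation, had 11.1, 7.90, 8.02 and 7.69 CPM in WT and 8.58, 12.8, 16.3 and 9.29 CPM in T3TG. Lgals3bp, a secreted glycoprotein that binds galectins, had 17.1, 16.2, 13.3 and 15.8 CPM in WT and 13.9, 19.7, 25.5 and 21.0 CPM in T3TG. In all 3 genes T3TG replicate 3 was highest and T3TG replicate 1 lay within the WT range. Their log2 fold changes were 0.60 (SE 0.25), 0.44 (SE 0.20) and 0.36 (SE 0.16), with edgeR adjusted p of 0.545, 0.586 and 0.567. In the 6 libraries the same values were 0.23, 0.04 and 0.15. Xaf1, which antagonises an inhibitor of apoptosis, had 0.38 (SE 0.21), and 0.03 in the 6 libraries. Ifi35, Sp100 and Ifi44 had 0.06, 0.12 and -0.12, with SE of 0.14, 0.16 and 0.37, and Sp100 had -0.08 in the 6 libraries.

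**Figure D4:**
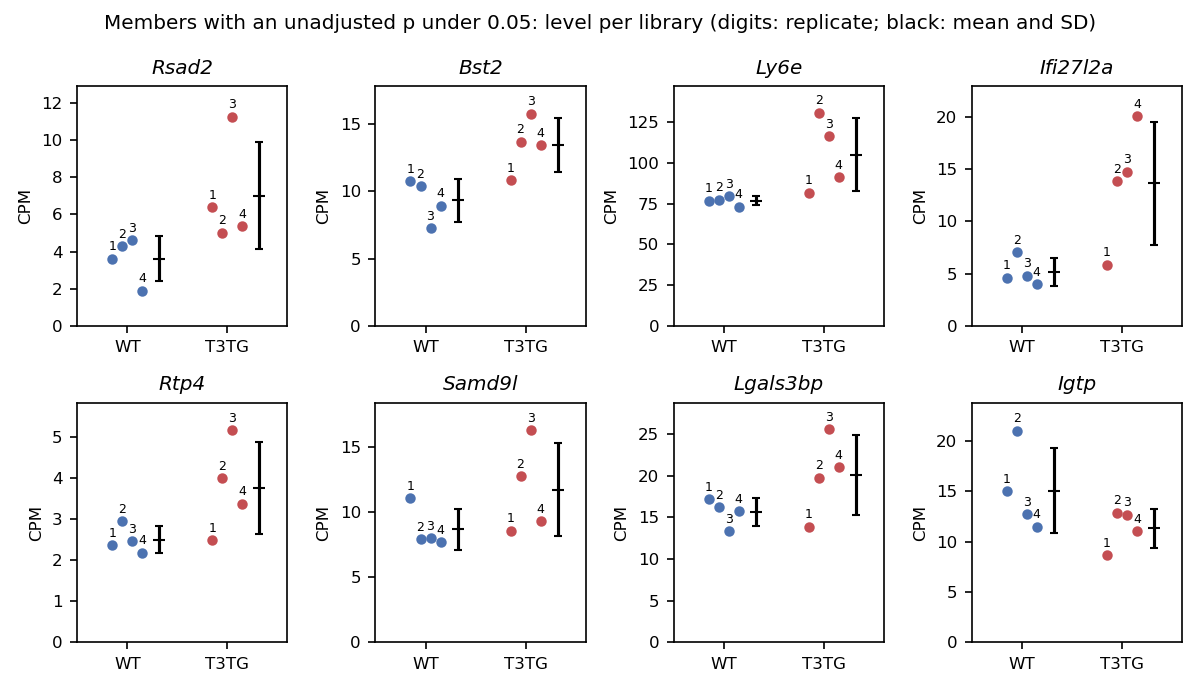
CPM (y axis, starting at 0) in each library of the 8 members with an unadjusted edgeR p under 0.05, with the replicate number above each point and the mean ± SD of the 4 libraries of a group in black. T3TG replicate 1 lies close to or within the WT range in each panel but those of Rsad2 and Igtp.

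The transcription factors that carry the type I signal had small differences with wide intervals. Irf9 had 7.68 ± 0.636 CPM for WT and 8.86 ± 2.49 for T3TG (SD, n = 4 each), a log2 fold change of 0.21 (SE 0.18) that shrank to 0.01 without T3TG replicate 3. Stat2 had 0.25 (SE 0.17) on the log2 scale. Irf7, the factor that amplifies interferon production and is itself induced, had 0.39 (SE 0.26) in 8 libraries and -0.04 (SE 0.26) in the 6. Its highest value, 11.6 CPM in T3TG replicate 3, was followed by 8.07 CPM in WT replicate 1.

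The sensors of viral RNA and of Z-form nucleic acid had differences below or close to their SE. Ifih1 (MDA5), which binds long double-stranded RNA, had 5.96 ± 0.362 CPM for WT and 6.83 ± 1.79 for T3TG (SD, n = 4 each), a log2 fold change of 0.21 (SE 0.19). It was 0.06 without T3TG replicate 3. Ddx58 (RIG-I) and the protein kinase Eif2ak2 (PKR) had 0.15 (SE 0.21) and 0.03 (SE 0.20). The 95% interval of the ratio for Eif2ak2 ran from 0.759 to 1.37. Dhx58 and Zbp1 rest on few reads, 22 to 44 and 4 to 39 counts per library, and had 0.07 (SE 0.35) and 0.36 (SE 0.57).

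The oligoadenylate synthetases, which activate the RNA-degrading enzyme RNase L or act beside it, were low throughout. Oasl2 had 4.51, 5.19, 3.09 and 1.85 CPM in WT replicates 1 to 4 and 3.47, 4.90, 4.21 and 4.22 CPM in T3TG replicates 1 to 4. Its log2 fold change of 0.20 (SE 0.27) became -0.03 without WT replicate 4. Oas1a and Oas2 had 0.17 (SE 0.42) and 0.04 (SE 0.23). Oas3, Mx1 and Mx2 were too low to be tested. Mx1, a GTPase that blocks influenza viruses, had 1 to 40 counts per library, or 0.0475 to 1.45 CPM. The titles of the control libraries begin with the letters of this gene symbol, whose meaning there is not given.

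Isg15, the ubiquitin-like protein that is attached to other proteins in the response, and its protease Usp18 stood at 0.08 (SE 0.40) and 0.08 (SE 0.26) in log2 fold change. Isg15 was low in both groups, at 1.91 ± 0.804 CPM for WT and 1.97 ± 1.13 for T3TG (SD, n = 4 each). Trim25, the ubiquitin ligase that acts on RIG-I, was at 13.5 ± 0.996 and 15.2 ± 1.12 CPM, with 0.18 (SE 0.11) on the log2 scale. The partners Dtx3l and Parp9, a ubiquitin ligase and an ADP-ribosyltransferase whose genes overlap on chromosome 16, had -0.03 (SE 0.13) and 0.07 (SE 0.14). The related Parp14 had 0.20 (SE 0.15) and Trim30a, a ubiquitin ligase family member, 0.45 (SE 0.28).

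The GTPase members were highest in another library than the type I-like members, while WT replicate 4 was lowest for both classes. They act on membranes around intracellular parasites and bacteria. Their summed level was 82.6, 116, 71.0 and 58.2 CPM in WT replicates 1 to 4 and 78.4, 90.7, 86.5 and 82.4 CPM in T3TG replicates 1 to 4. WT replicate 2 was highest and WT replicate 4 lowest, so the WT group alone spanned all T3TG libraries. WT replicate 2 was highest in 4 of the 8 members (Gbp7, Igtp, Irgm2 and Iigp1), and WT replicate 4 lowest in 6. The median log2 fold change of 0.17 was 0.41 without WT replicate 2 and 0.0439 without WT replicate 4.

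Igtp (Irgm3), a GTPase that regulates the other Irg proteins, was the 1 member with a lower value at an unadjusted p under 0.05. Its level was 15.1, 21.1, 12.8 and 11.5 CPM in WT replicates 1 to 4. Its T3TG values, in the same order, were 8.67, 12.9, 12.7 and 11.0 CPM. The groups overlapped, since T3TG replicates 2 and 3 lay between the WT values. On the log2 scale the difference was -0.41 (SE 0.19, edgeR adjusted p = 0.585), it was -0.62 (SE 0.24) in the 6 libraries and it shrank to -0.21 without WT replicate 2.

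Irgm2, which lies next to Igtp and shares most of the printed promoter stretch with it, had 17.1, 27.2, 15.03 and 13.3 CPM in WT and 16.7, 21.0, 15.7 and 16.5 CPM in T3TG. Both genes peaked in WT replicate 2. The log2 fold change of Irgm2 was -0.05 (SE 0.20), and 0.20 without WT replicate 2. Irgm1, another regulator of the family, was steadier, at 16.3 ± 1.72 CPM for WT and 17.4 ± 1.23 for T3TG (SD, n = 4 each), with a 95% interval for the ratio from 0.909 to 1.27. Iigp1, an effector that coats parasite vacuoles, had the largest SE of the GTPase members (0.48), with 8.12, 19.0, 6.06 and 3.61 CPM in the WT libraries and 9.04, 10.8, 8.06 and 11.2 CPM in the T3TG libraries.

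The guanylate-binding proteins Gbp2, Gbp3 and Gbp7, which lie in one cluster on chromosome 3 with a further copy, Gbp2b, beside Gbp2, all had higher values in T3TG. Their log2 fold changes were 0.35 (SE 0.17), 0.30 (SE 0.21) and 0.24 (SE 0.25), and none passed. Gbp2 had 8.35, 7.90, 7.96 and 5.13 CPM in WT replicates 1 to 4 and 9.33, 9.01, 10.6 and 8.27 CPM in T3TG replicates 1 to 4. WT replicate 4 was lowest for all 3 genes, and without it the log2 fold change of Gbp2 was 0.20 and that of Gbp7 was 0.06. Ifi47, a further Irg protein, rested on 21 to 98 counts per library and had 0.34 (SE 0.32), or 0.06 without T3TG replicate 3.

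Other genes of the pathway were counted from 7 lists with 99 names, of which 98 were in the table and 76 could be tested. None passed the edgeR threshold over all genes, and 6 were higher (7.89%, against 5.88% of all tested genes) and 0 lower at an unadjusted p under 0.05. In the 6 libraries 3 of the 76 were higher at that p (3.95%, against 3.14% of all genes tested there) and 0 lower. The 3 were Slfn5, Gbp4 and Jak2, a kinase of the interferon gamma receptor that is named here after its value was seen. Of 11 interferon ligand genes, 10 had 0 counts in every library. In the 6 libraries without even counts, 0 reads allow a level of up to 0.140 to 0.186 CPM, from a limit of 3 counts and for counting error only. Ifng, which encodes interferon gamma, had 2 counts in WT replicate 1 and in T3TG replicate 4 and 0 in the others.

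The receptors were present in both groups. Ifngr2, the interferon gamma receptor chain that binds Jak2, was 58.0 ± 5.82 CPM for WT and 53.8 ± 5.12 for T3TG (SD, n = 4 each), with a log2 fold change of -0.11 (SE 0.10). Ifngr1 had 0.31 (SE 0.16) and Ifnar1, a chain of the type I receptor, 0.07 (SE 0.12). Jak1 had 154 ± 13.8 and 167 ± 13.9 CPM (0.12, SE 0.09). Mavs, the adaptor of the RNA sensors on mitochondria, had -0.15 (SE 0.11), and Ptpn11, a phosphatase that dampens receptor signals, -0.04 (SE 0.10).

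Of 32 other induced genes tested, 25 had higher values in T3TG, with a median log2 fold change of 0.28. In the 6 libraries 22 were higher, with a median of 0.15. Of all tested genes 49.1% were higher in the 8 libraries (median -0.00427) and 50.4% in the 6 (median 0.00206). Slfn5, a Schlafen family protein of the nucleus, had 44.4, 35.3, 38.7 and 46.1 CPM in WT replicates 1 to 4. Its T3TG values, in the same order, were 54.9, 55.5, 59.5 and 49.6 CPM. Its groups did not overlap, in libraries with and without even counts. The log2 fold change was 0.42 (SE 0.10), at an edgeR adjusted p of 0.135 and a DESeq2 adjusted p of 0.0361, and it was 0.34 in the 6 libraries (unadjusted p = 0.0131). Slfn2, Isg20 (an RNA exonuclease) and Sp140 (a nuclear body protein) had 0.69 (SE 0.22), 1.17 (SE 0.40) and 0.84 (SE 0.38). They had 0.35, 0.70 and 0.45 in the 6 libraries, with unadjusted p of 0.168, 0.0734 and 0.318. Myd88, the adaptor of Toll-like receptors, had 0.37 (SE 0.16), and 0.35 (SE 0.19) in the 6 libraries. Of 8 other interferon-induced GTPases tested, 7 were higher, with a median of 0.40. In the 6 libraries 6 of them were higher, with a median of 0.26, beside the same shares of all tested genes. Gbp4 had 5.70 ± 2.17 CPM for WT and 8.66 ± 1.09 for T3TG (0.60, SE 0.23, edgeR adjusted p = 0.464), with 0.69 (SE 0.30) in the 6 libraries, and Gbp6 16.1 ± 5.68 and 15.6 ± 4.77 CPM (-0.05, SE 0.29).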

How the data were processed

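Per the labels' protocols, total RNA of the muscle was isolated with a spin column kit and sequenced as polyA-enriched paired-end libraries. The submitters' processing notes name the mm10 build, the aligner HISAT2 2.2.1, the counter HTSeq 0.9.1 and also DESeq2 1.34.0. No label or header gives the annotation or strand setting used in counting, and 16 of the 46 members overlap another RefSeq gene. The authors deposited raw counts per gene symbol, whole numbers without normalization. Of 35976 rows, 27 have a date where the symbol should be and hold 0.0885% to 0.0961% of the counts of a library. Neither library sizes nor tests include them.

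Genes were filtered with filterByExpr (minimum count 10), scaled by TMM and compared in edgeR 4.0.16 by its quasi-likelihood test (R 4.3.3, robust dispersion), group as the only term, with Benjamini-Hochberg adjustment over all 14064 genes tested. The SE is the absolute log2 fold change divided by the square root of F. Library medians use log2 CPM with a prior count of 2. Levels per kilobase use the union of GENCODE exons on GRCm38. RefSeq coordinates are of GRCm38.p6, the assembly behind mm10, and are 1-based.

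Members and lists were chosen with earlier results of these data known, so the lists were described by counts and medians and not tested. Genes described in full are the members with an unadjusted p under 0.05, the member of highest mean CPM in each role group, and the 3 members of each class with the largest difference at 1 CPM or more. Of the pathway lists they are the genes with an unadjusted p under 0.05 and the gene of highest mean CPM in each list. Other members and Ifngr1, Ifnar1 and Ifi27 are given by value for their role or position. All pairs of libraries differed beyond sampling noise (chi-square per degree of freedom 9.08 or more). On simulated counts with the fitted trend dispersion, 50.0% of 100 genes changed 1.5-fold and 89.0% of 100 changed 2-fold were recovered for T3TG minus WT among 13909 genes, with 6 false calls of 145. The simulation held neither the spread of single genes around that trend nor the even counts of T3TG replicates 2 and 3. Recovery in the real counts may therefore be lower. Alternatives were other scaling, filters and thresholds, DESeq2 1.42.0, voom of limma 3.58.1 with sample weights, terms for the first title number, halved counts for T3TG replicates 2 and 3 or their removal, and leaving out each library.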

Additional observations from a re-analysis of the deposited data

Results flagged for a closer look

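In 4 of 86 combinations of a tested member and a group (4.65%), 1 library stood far from the other 3 on the log2 scale. Chance flags about 5% of such groups. The gap to the nearest library, as a share of the group's range, was 0.913 for Dhx58, with T3TG replicate 3 lowest at 0.799 CPM, and 0.864 for Ifit2, with the same library highest. It was 0.886 for Samd9l, with WT replicate 1 highest, and 0.887 for Gbp2, with WT replicate 4 lowest.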

How the results depend on the processing

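The number of members past an adjusted p of 0.05 was 0 with edgeR. It was 1 without a filter on low counts (Ly6e, adjusted p = 0.0420), where 107 of 23039 genes passed. It was 1 with DESeq2 (Ifi27l2a), where 91 of 13205 genes passed. With 1 library left out it was 0 to 1, the 1 being Ifi27l2a without T3TG replicate 1, where 37 of 14228 genes passed. The other pathway genes, 0 with edgeR, gave 1 without a filter and 1 with DESeq2, Slfn5 both times. The 7 members higher at an unadjusted p under 0.05 became 4 with voom and sample weights, 4 with a replicate block on the first title number, 4 at an unadjusted p of 0.01, and 2 in the 6 libraries. With 1 library left out the number ran from 4 (with WT replicate 3 or either even-count library removed) to 11 (without T3TG replicate 1). Among these alternatives, the share of all genes higher at that p was counted only for the 6 libraries (3.14%), so the other counts have no share beside them. The 1 member lower, Igtp, became 0 with the replicate block, with a term for first title number 6 and at p of 0.01. It ran from 0 to 1 with 1 library left out, and was 0 on removal of replicate 1 or 2 of WT, or of replicate 1 or 4 of T3TG. The first title number, whose meaning is not given, was not taken as a pairing. Libraries that share it deviated with r of 0.12 for WT replicate 2 with T3TG replicate 1. For WT replicate 4 with T3TG replicates 2 to 4, r was -0.05 to 0.15. Pairs with different numbers had r of -0.19 to 0.085. These few pairs, which share libraries, cannot decide whether the number marks a batch. Number 6 is carried by WT replicate 4 and by T3TG replicates 2 to 4, so it is unbalanced between the groups. Of 272 log2 fold changes of 16 described members, 3 changed sign: Irgm2 (-0.05) with the term for first title number 6 (log2 fold change 0.0808), and, with 1 library left out, Irgm2 (-0.19 to 0.20) and Oasl2 (-0.0297 without WT replicate 4, to 0.42). Halving all counts of T3TG replicates 2 and 3 gave medians of 0.21 and 0.17 for the 2 classes. Scaling to the library total takes out such a factor, so these medians could hardly change and do not test the effect of the even counts. The even counts of T3TG replicates 2 and 3, and members under 100 counts such as Isg15 and Zbp1, limit the precision.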
